A study of Homo sapiens with 7 samples.

Results

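Gastrokines and trefoil factors are small secreted proteins of the mucous lining of the stomach and gut. The group comprised 5 genes, the gastrokines GKN2 and GKN1 and the trefoil factors TFF1, TFF2 and TFF3, out of 14232 genes that had a transcript cluster of their own on the array. A transcript cluster is a set of probes summarised to 1 value. Of all clusters, 14432 had 1 gene symbol, 2408 several and 5171 none, and the shares of all clusters given below cover all of these. Each of the 5 symbols matched exactly 1 of the 14432 clusters with 1 symbol, out of 22011 clusters in all, so no choice between such clusters was needed. Clusters with several symbols were not read for these genes. The genes were chosen by the known change of GKN2 in this same comparison, to which the other gastrokine and the trefoil factors were added as relatives. Their values in CSC and DU145 cells are therefore a description, with no test. RNA was taken from CSC, which were isolated as CD44+CD24- cells out of the DU145 line (4 arrays), and from the parental bulk DU145 cells (3 arrays). DU145 is an androgen-independent human prostate carcinoma line, and CSC stands for cancer stem cells. According to the methods, CSC were sorted from DU145 cells by flow cytometry and grown as floating spheroids in serum-free medium with EGF, bFGF and insulin, and RNA was taken from pools of spheroids. The DU145 cells grew attached in medium with serum, so sorting, serum, growth factors and attachment cannot be told apart in this comparison. Both groups derive from the same line and neither received a further treatment, and the spheroids are described as also holding differentiated cells in poor condition. The labels describe the CSC only as sorted cells and do not mention spheroids. They list 4 CSC arrays, whereas the methods state 3 replicates of each condition, and the difference is not explained, so what the 4 arrays replicate is uncertain.

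Gastrokines carry a BRICHOS domain, a fold found in a few families of precursor proteins, and are made by the surface mucous cells of the stomach. GKN1 and GKN2 are among the abundant products of that epithelium, and GKN2 is known to form a disulfide-linked complex with TFF1. Trefoil factors carry the trefoil domain, a compact loop structure held by disulfide bonds, and are secreted together with mucins. TFF1 belongs to gastric surface cells and is an estrogen-responsive gene in breast cancer cells, TFF2 belongs to mucous neck cells, and TFF3 belongs to goblet cells of the intestine. The prostate is not a main site of gastrokine expression.

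The genes lie in small clusters on the genome. In the RefSeq annotation GKN2 and GKN1 are next to each other on chromosome 2, followed by ANTXR1, and TFF3, TFF2 and TFF1 stand in a row on chromosome 21. Promoter windows of 300 bases, from 250 bases before to 50 bases after the annotated start, were held for GKN2, GKN1 and ANTXR1 in the RefSeq table used here (build GRCh38.p14). They are shown because these are 3 consecutive genes, of which GKN2 and ANTXR1 were lower in CSC and GKN1, which lies between them, was below the detection limit in both groups, a limit set by olfactory receptor genes that are silent in most tissues. Capitals mark the letters TATAAA, the core of a TATA box, on either strand.
GKN2, chr2:68952844-68953143, minus strand: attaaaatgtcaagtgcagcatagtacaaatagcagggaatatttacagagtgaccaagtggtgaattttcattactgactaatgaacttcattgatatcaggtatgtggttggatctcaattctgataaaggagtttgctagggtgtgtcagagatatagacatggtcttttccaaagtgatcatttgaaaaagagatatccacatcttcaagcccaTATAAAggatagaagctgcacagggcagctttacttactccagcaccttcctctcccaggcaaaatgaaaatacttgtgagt
GKN1, chr2:68974386-68974685, plus strand: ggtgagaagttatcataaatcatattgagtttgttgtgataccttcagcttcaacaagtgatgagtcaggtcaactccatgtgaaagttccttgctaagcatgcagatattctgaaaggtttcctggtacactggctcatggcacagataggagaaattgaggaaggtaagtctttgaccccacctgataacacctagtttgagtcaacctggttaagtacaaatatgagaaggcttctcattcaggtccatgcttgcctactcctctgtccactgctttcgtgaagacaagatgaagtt
ANTXR1, chr2:69012894-69013193, plus strand: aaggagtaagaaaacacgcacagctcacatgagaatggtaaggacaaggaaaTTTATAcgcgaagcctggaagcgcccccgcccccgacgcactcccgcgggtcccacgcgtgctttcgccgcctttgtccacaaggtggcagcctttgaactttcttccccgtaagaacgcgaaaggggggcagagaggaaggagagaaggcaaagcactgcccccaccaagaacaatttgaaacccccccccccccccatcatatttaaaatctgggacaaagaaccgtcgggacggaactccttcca

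The GKN2 window held TATAAA 1 time, on the strand of the gene and beginning 32 bases before the annotated start. The GKN1 window did not hold these letters. The ANTXR1 window held them 1 time, on the opposite strand and 198 bases before the start. ANTXR1 has 2 such windows in the table, of which the first is printed. Of all 35116 windows, 11.5% held TATAAA on either strand. The letters AGATAA are 1 form of the site that GATA factors recognise. They were in none of the 3 windows and in 10.3% of all windows on either strand. The letters TGTTTAC, 1 form of the site of FOXA factors, were in none of the 3 windows and in 3.42% of all. Other forms of either site were not searched, so these counts do not show that a window lacks such a site. The gastrokine windows were poor in G and C. The GC content was 38.3% for GKN2, 42.3% for GKN1 and 56.0% for ANTXR1, against a median of 58.7% over all windows. The dinucleotide CpG occurred 0 times in the GKN2 window, 1 time in that of GKN1 and 19 times in that of ANTXR1, against a median of 14 over all windows. A count as low as that of GKN2 was found in 3.96% of windows. Such matches describe the sequence and do not show binding.

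GKN2 was the member that differed most between the groups. Its log2 values were 2.85, 2.68, 2.92 and 3.07 on the CSC arrays, against 5.36, 5.41 and 6.06 on the DU145 arrays. Every CSC array was lower than every DU145 array, with a gap of 2.30 between the highest CSC and the lowest DU145 value. The mean was 2.88 ± 0.16 (SD, n = 4) in CSC and 5.61 ± 0.39 (SD, n = 3) in DU145 cells, a difference of -2.74 (standard error 0.19), or 6.66-fold lower in CSC. The DU145 arrays were not equally high, with 1 array, DU145 array 3, above the other two. Without that array the difference was -2.51, and over the fits that left out 1 array each it lay between -2.86 and -2.51. In RNA from bulk cultures, fewer cells that express a gene and less RNA per cell cannot be told apart.

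**Figure D1:**
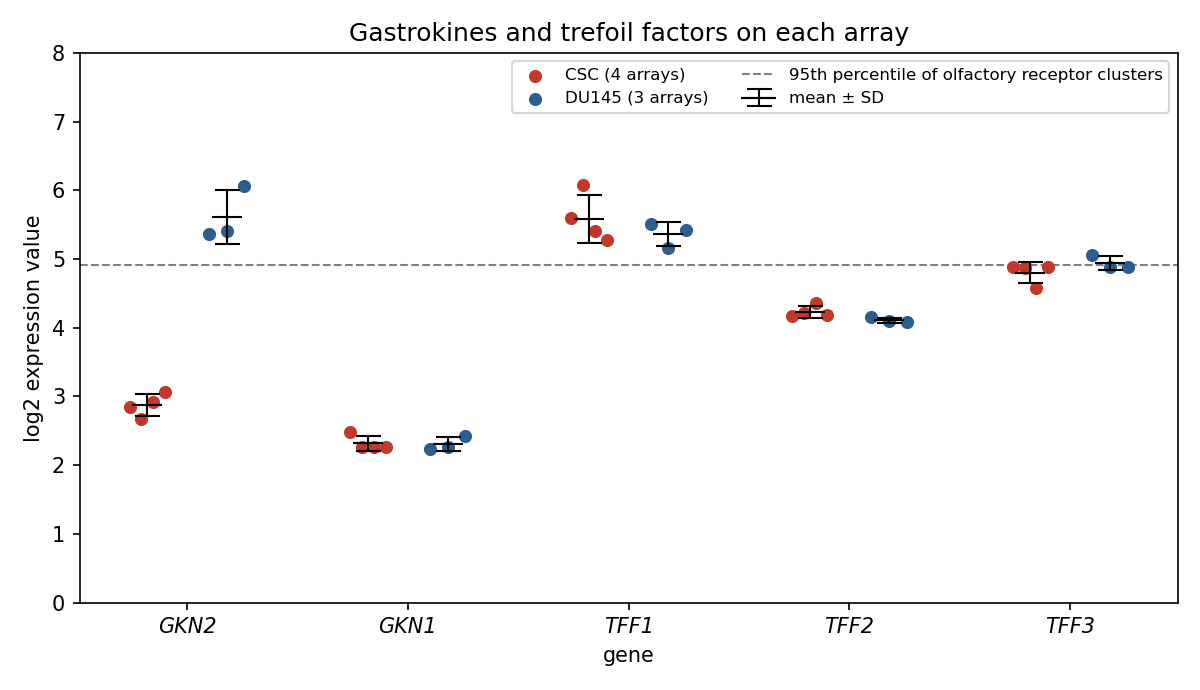
Log2 expression value (vertical axis) of each gene (horizontal axis) on the 4 CSC arrays (red, left of each pair) and the 3 DU145 arrays (blue, right of each pair), with mean ± SD. The dashed line is the 95th percentile of olfactory receptor clusters at 4.92. GKN2 averaged 2.88 in CSC and 5.61 in DU145 cells, while the group means of the other genes differed by at most 0.23.

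The other gastrokine, GKN1, differed between the groups by less than its spread between arrays. The CSC arrays gave 2.48, 2.27, 2.27 and 2.27 and the DU145 arrays 2.24, 2.27 and 2.43. The means were 2.32 ± 0.11 (SD, n = 4) in CSC and 2.31 ± 0.10 (SD, n = 3) in DU145 cells, with a difference of 0.0061 (standard error 0.09). The groups overlapped. Setting the array medians equal, which lowers the difference of every cluster by 0.08, gave -0.07. The deposited value was exactly the same, 2.27, on 4 of the 7 arrays, 3 of them CSC arrays. Such repeats are common in this table, where 13.4% of all clusters have 1 value on at least 4 arrays and 113 clusters have the same value on all 7. They narrow the apparent spread between replicates of GKN1 and of TFF3.

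Among the trefoil factors, TFF1, which is the partner of GKN2 in the gastric mucus, gave 5.60, 6.08, 5.41 and 5.28 on the CSC arrays and 5.50, 5.16 and 5.42 on the DU145 arrays. The 2 highest values were those of CSC arrays 1 and 2, and the rest of the CSC arrays lay within the range of DU145 cells. The means were 5.59 ± 0.35 (SD, n = 4) in CSC and 5.36 ± 0.18 (SD, n = 3) in DU145 cells, a difference of 0.23 (standard error 0.20). Most of it rested on CSC array 2, without which the difference was 0.07. TFF2, which is also called spasmolytic polypeptide, gave 4.17, 4.22, 4.35 and 4.18 on the CSC arrays and 4.15, 4.10 and 4.09 on the DU145 arrays. The groups did not overlap, but the gap between them was only 0.02 and the difference of 0.12 (standard error 0.07) was 0.04 after the array medians were set equal, by the same common shift. TFF3, the trefoil factor of goblet cells, gave 4.89, 4.87, 4.57 and 4.89 on the CSC arrays and 5.07, 4.89 and 4.89 on the DU145 arrays. The value 4.89 occurred on 4 of the 7 arrays, the difference was -0.14 (standard error 0.11), and without CSC array 3, the lowest, it was -0.07. In size, the differences of the 3 trefoil factors and of GKN1 were at most 0.23, and 86.8% of all genes differed by less than 0.5.

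Within each group the members kept different orders over the arrays, so that no array was high for the whole set. CSC array 1 held the highest CSC value of GKN1, CSC array 2 that of TFF1, CSC array 3 that of TFF2 and CSC array 4 that of GKN2. Of the DU145 arrays, array 3 was highest for GKN2 and GKN1 and array 1 for TFF1, TFF2 and TFF3.

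For orientation, clusters of 225 olfactory receptor genes, which are silent in most tissues, set a level below which a cluster was not taken as detected. This level, the 95th percentile of their means, was 4.92. Probes differ in brightness, so it is a detection limit and does not rank genes. GKN2 was below it on all 4 CSC arrays and above it on all 3 DU145 arrays. TFF1 was above it on all 7 arrays. GKN1 and TFF2 were below it on all 7, and TFF3 exceeded it on 1 DU145 array and no CSC array. In the mean over the CSC arrays, 150 of the 225 olfactory receptor clusters were above GKN2, against 3 in the mean over the DU145 arrays. By this measure GKN2 was detected in DU145 cells and not in CSC, so the fold given for it is a ratio to a value under the detection limit.

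All clusters were compared with limma, a linear model for each cluster with moderated standard errors. The limits for calling a cluster were those of the study's methods, an adjusted p not above 0.05 together with a log2 difference of at least 1 in size. Of the members 1 of 5, GKN2, met these limits, where 1.30% of all clusters did in either direction and 0.577% did on the lower side. GKN2 and TFF2 were the members whose groups did not overlap, GKN2 on the lower and TFF2 on the higher side. Over all clusters, 6.13% did not overlap on the lower side and 10.8% on the higher side. Since the genes were picked with this contrast in view, nothing is read from these counts. Whether replicate arrays stand for independent cultures is not stated, so p-values given for other genes measure only the spread between these arrays, and that spread may be technical.

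**Figure D2:**
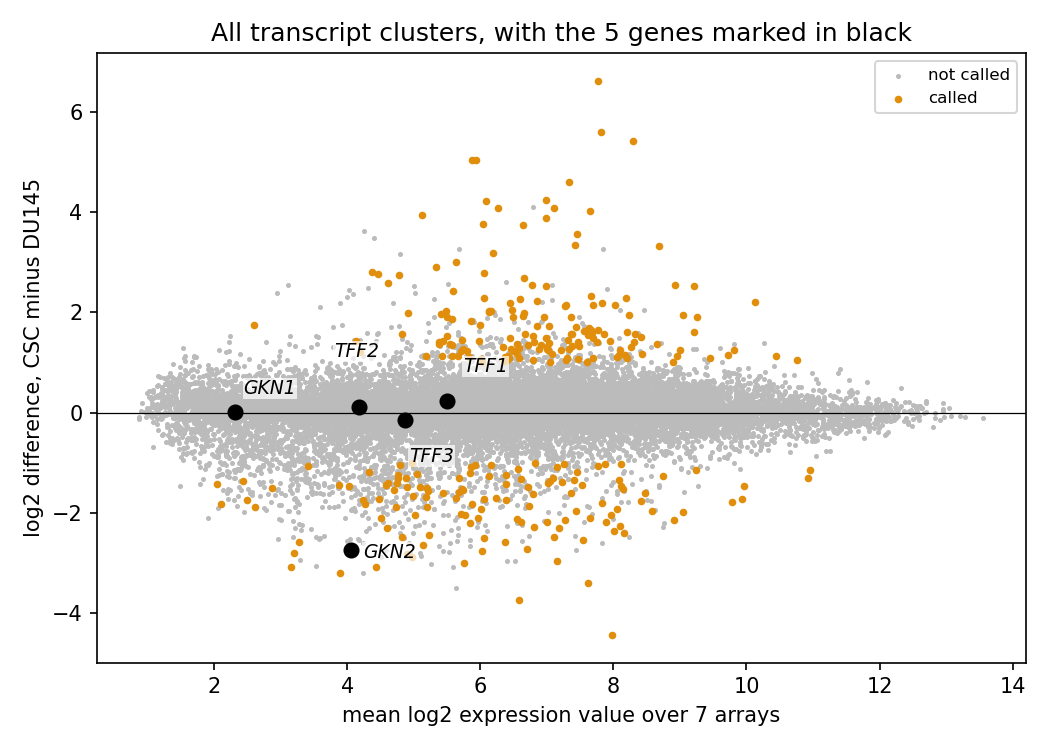
Log2 difference, CSC minus DU145 (vertical axis), against the mean log2 expression value over the 7 arrays (horizontal axis) for all 22011 clusters, with called clusters in orange and others in grey. The 5 genes are black points, of which GKN2 lies at -2.74 and the other 4 between -0.14 and 0.23.

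The array medians ran from 5.88 to 5.91 in CSC and from 5.77 to 5.89 in DU145 cells, and the median difference over all genes was 0.10. The markers of the sort, CD44 and CD24, differed by -1.18 (adjusted p = 0.128) and -0.40 (adjusted p = 0.449), and neither was called. CD44 was lower on every CSC array than on every DU145 array, beside 6.13% of all clusters, and the groups overlapped for CD24. By quantitative PCR the study instead reports similar CD44 RNA in spheroids and DU145 cells and lower CD24 RNA in spheroids. The epithelial genes KRT8, KRT18, KRT19 and EPCAM were above the detection limit on every array, and EPCAM was called higher in CSC. The prostate genes KLK2 and KLK3 stayed near the limit in both groups, at means of 4.96 and 4.91 in CSC and of 5.00 and 4.95 in DU145 cells. Of the 3 measured leukocyte genes, PTPRC and CD3E were below the limit on every array and CD68 was above it on every array. Of the 3 measured fibroblast genes, DCN was below it and COL1A1 and COL1A2 were above it on every array. The 3 endothelial genes PECAM1, VWF and CDH5 were below it on every array. No gene of the last 3 lists was called.

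The detected genes next to the gastrokines did not move as a block. Of the 20 protein-coding genes that are the 5 nearest on each side of either locus, 17 had a cluster of their own. Of these, 11 had a mean above the detection limit in either group, and 1 was called, lower in CSC. This was ANTXR1, a collagen-binding membrane protein and anthrax toxin receptor, which follows GKN1 on chromosome 2. Its log2 values were 6.31, 6.15, 5.78 and 6.45 on the CSC arrays, against 9.51, 9.55 and 9.62 on the DU145 arrays. All CSC arrays were lower, and ANTXR1 fell by 3.39 (standard error 0.16, adjusted p = 0.000962 from limma). It was called without each of the 7 arrays in turn. Over all clusters 0.577% were called on the lower side, and ANTXR1 was known to be among the strongly changed genes when the neighbours were listed.

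On the other side of GKN2 stands BMP10, a ligand of the heart, which averaged 3.66 ± 0.24 (SD, n = 4) in CSC and 3.17 ± 0.33 (SD, n = 3) in DU145 cells, with adjusted p = 0.236. ARHGAP25, the next gene, had a difference of 0.76 (standard error 0.25, adjusted p = 0.172). GKN1, which lies between GKN2 and ANTXR1, was below the detection limit on all 7 arrays, so a lower level in CSC could not have been seen. The same holds for BMP10, also below it on all 7 arrays, and for ARHGAP25, below it on every DU145 array. Beyond ANTXR1, GFPT1, the first enzyme of the hexosamine pathway, had a difference of 0.18 (standard error 0.09, adjusted p = 0.327), and NFU1, an iron-sulfur cluster scaffold, of 0.25 (standard error 0.10, adjusted p = 0.242). On chromosome 21, ABCG1, a sterol transporter, and TMPRSS3, a membrane serine protease, flank the trefoil factors. ABCG1 had a difference of 0.09 (adjusted p = 0.575) and TMPRSS3 of 0.05 (adjusted p = 0.643). TMPRSS3 was below the detection limit on every array, and ABCG1 exceeded it on 1 CSC array and no DU145 array. Over all 17 measured neighbours the median difference was 0.09, beside 0.10 over all genes. The groups did not overlap for 3 of the 17 on the higher side, ARHGAP25, GFPT1 and NFU1, beside 10.8% of all clusters, and for 1 on the lower side, ANTXR1, beside 6.13%. The gap between the groups was 0.25 for ARHGAP25 but only 0.02 for GFPT1 and 0.01 for NFU1.

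**Figure D3:**
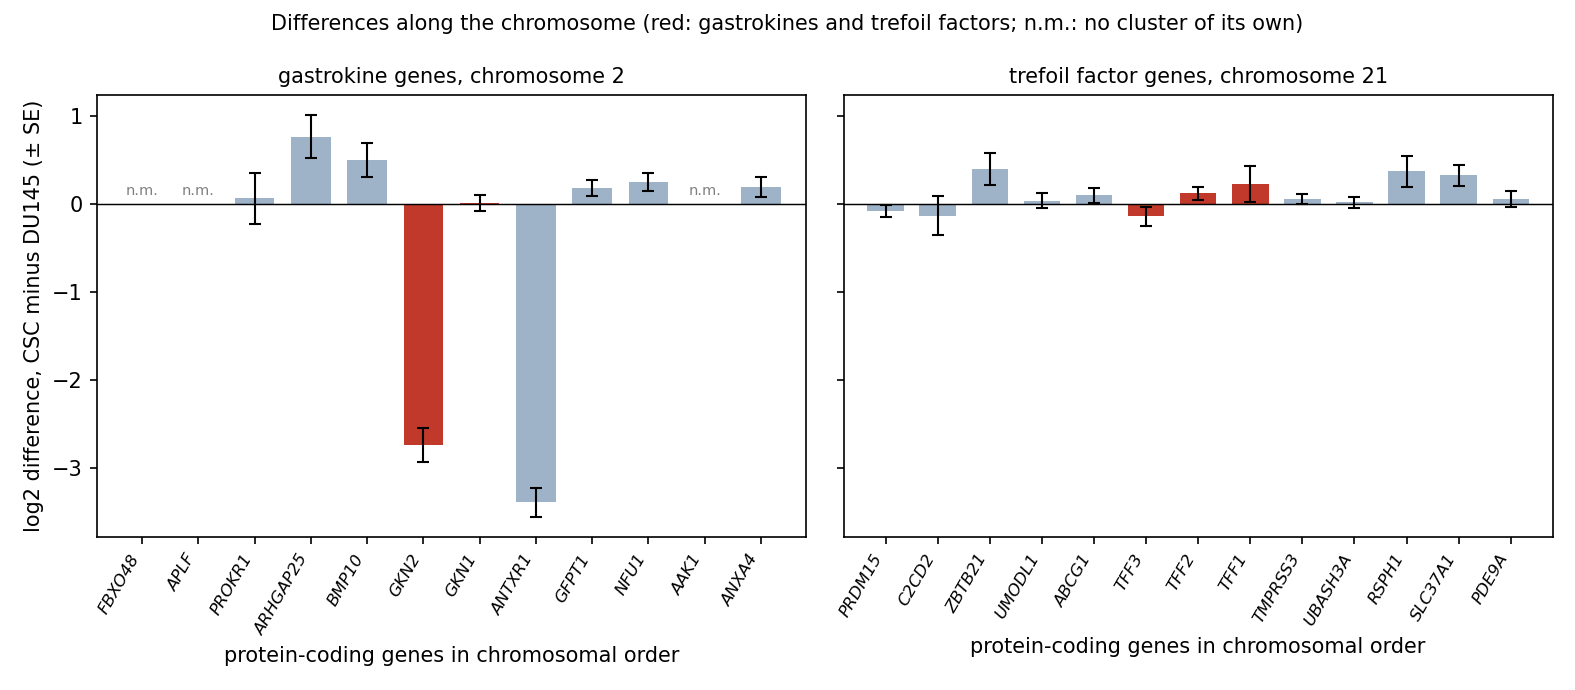
Log2 difference, CSC minus DU145, with its standard error (vertical axis), for protein-coding genes in RefSeq order (horizontal axis) around the gastrokine genes on chromosome 2 (left) and the trefoil factor genes on chromosome 21 (right). Red bars are the gastrokines and trefoil factors, blue-grey bars their neighbours, and n.m. marks genes with no cluster of their own. GKN2 lies at -2.74, ANTXR1 at -3.39 and GKN1, which was below the detection limit on every array, at 0.0061.

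The genes whose pattern over the 7 arrays was closest to that of GKN2 were found by the root mean square difference after each gene was centred on its own mean. In order they were TGFBI, ARHGAP29, ANTXR1, ATP8B1 and LGALS1, with root mean square differences of 0.33, 0.36, 0.42, 0.42 and 0.43 on the log2 scale. TGFBI is a secreted matrix adhesion protein, ATP8B1 a lipid flippase and LGALS1 a secreted lectin. Their differences were -2.37 for TGFBI, -2.40 for ARHGAP29, -3.39 for ANTXR1, -2.27 for ATP8B1 and -2.15 for LGALS1. These genes were selected on their likeness to GKN2 over the same 7 arrays, so their low values in CSC are no further result. With 2 groups so far apart, the measure mostly reflects the step between them. The other members were far from this pattern, with ranks of 1887 for TFF3, 3529 for GKN1, 7467 for TFF2 and 10895 for TFF1 among the other genes.

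**Figure D4:**
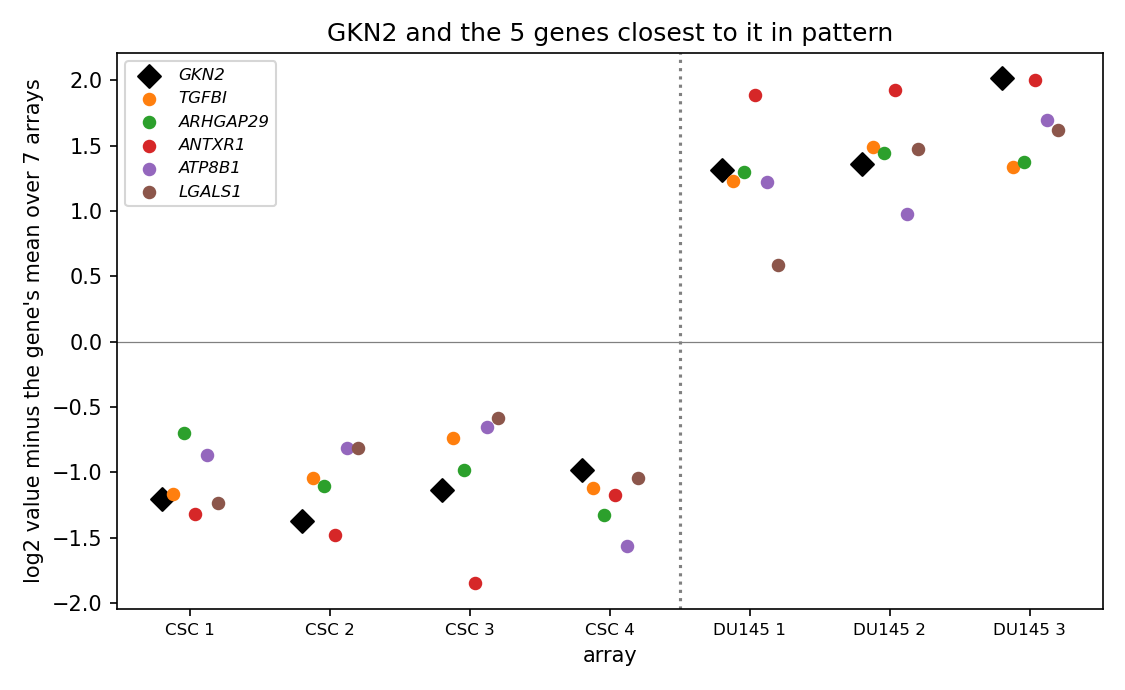
Log2 value minus the gene's own mean over 7 arrays (vertical axis) on each array (horizontal axis) for GKN2 (black diamonds) and the 5 genes closest to it. All 6 genes lie below 0 on the CSC arrays and above 0 on the DU145 arrays, and GKN2 is highest on DU145 array 3 at 2.02.

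The relatives of the members by protein domain were few, and no call among them says little where 1.30% of all clusters were called. At an unadjusted p of at most 0.05, without a fold limit, stood 19.7% of all clusters. Of 8 other genes with a BRICHOS domain, 6 were measured and 0 were called by limma, with 0 at an unadjusted p of at most 0.05 and 0 by an unmoderated test. ITM2B, the precursor of the BRI2 peptide, had a difference of 0.30 (standard error 0.19, adjusted p = 0.425), and ITM2C one of -0.17 (standard error 0.09, adjusted p = 0.333). The median over the 6 was 0.02, and 3 of the 6 had a mean above the detection limit in either group. Of 6 other genes with a trefoil domain, 4 were measured and 0 were called, again with 0 at an unadjusted p of at most 0.05 and 0 by the unmoderated test. GAA, the lysosomal acid glucosidase, had a difference of 0.23 (standard error 0.13, adjusted p = 0.386), and the median over the 4 was 0.09. Of the 4, 2 had a mean above the detection limit in either group.

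None of the measured genes in the lists of gastric and intestinal mucosa was called lower in CSC. Many were not detected. A mean above the detection limit in either group was found for 7 of 15 gastric mucous, 8 of 14 gastric gland and 4 of 9 goblet cell genes. For the others a lower level in CSC could not have been seen. The share of all clusters on the higher side was 0.722% and that on the lower side 0.577%, and of the 14232 genes 143 were higher and 60 lower. Of 21 genes of gastric surface and neck mucous cells, 15 were measured, 1 was called higher and 0 lower, and their median difference was 0.11. The called gene was MUC1, a membrane-bound mucin, with log2 values of 9.48, 9.70, 10.28 and 10.07 on the CSC arrays, against 7.78, 7.90 and 8.08 on the DU145 arrays. MUC1 rose by 1.96 (standard error 0.21, adjusted p = 0.0149 from limma), and its adjusted p was 0.0507 without CSC array 2, 0.0712 without DU145 array 1 and 0.075 without DU145 array 2. TSPAN8, a tetraspanin of gastrointestinal epithelia, did not pass. Its log2 values were 5.69, 5.48, 4.65 and 7.43 on the CSC arrays, against 2.76, 2.08 and 1.69 on the DU145 arrays, a difference of 3.63 (standard error 0.65, adjusted p = 0.0529). The groups did not overlap, CSC array 4 was the highest, and all 3 DU145 arrays and CSC array 3 were below the detection limit. Without CSC array 4 the difference was 3.09 and the adjusted p 0.0416, and after the array medians were set equal it was 0.0386. LYZ, the antibacterial enzyme lysozyme, gave 2.79, 3.73, 5.60 and 4.61 on the CSC arrays, against 2.64, 2.55 and 2.77 on the DU145 arrays (adjusted p = 0.252). It was spread over the CSC arrays more widely than over the DU145 arrays, and only CSC array 3 was above the detection limit.

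Of 17 genes of gastric chief, parietal and endocrine cells, 14 were measured and 0 were called by limma, with 2 at an unadjusted p of at most 0.05, beside the 19.7% of all clusters, and 0 by the unmoderated test with the fold limit. The 2 genes were GHRL, the hormone ghrelin, with a difference of -0.48 (standard error 0.18, adjusted p = 0.218) and overlapping groups, and BHLHA15, a transcription factor of secretory cells. BHLHA15 had a difference of -0.36 (standard error 0.13, adjusted p = 0.2), and its groups did not overlap. All 14 differed by less than 0.5, with a median of 0.10. Of 12 goblet cell genes, 9 were measured and 0 were called by limma, with 1 at an unadjusted p of at most 0.05 and 1 by the unmoderated test before adjustment. That gene was SPINK4, a protease inhibitor of goblet cells. It gave 5.66, 5.72, 6.05 and 6.06 on the CSC arrays, against 4.21, 5.09 and 4.68 on the DU145 arrays. The CSC arrays were all higher, with a difference of 1.21 (standard error 0.22, adjusted p = 0.0551), and it passed after the array medians were set equal (adjusted p = 0.0425). The DU145 mean of SPINK4 was below the detection limit, which it exceeded on 4 CSC arrays and 1 DU145 array. The median over the 9 was 0.18.

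Among reported receptors and binding partners of trefoil factors, 5 of 10 were measured, 1 was called higher and 0 lower, beside 0.722% and 0.577% of all clusters. The called gene was DMBT1, a scavenger receptor of mucosal surfaces that is reported to bind trefoil factors. It gave 10.05, 10.18, 10.18 and 10.47 on the CSC arrays, against 4.86, 4.79 and 4.23 on the DU145 arrays. DMBT1 was below the detection limit on all 3 DU145 arrays and above it on all 4 CSC arrays. It rose by 5.59 (standard error 0.18, adjusted p = 0.000214), a difference taken against values under that limit, and its increase was known when the list was made. The chemokine receptor CXCR4, reported for TFF2, had a difference of 0.41 (standard error 0.26, adjusted p = 0.415), and EGFR one of -0.39 (standard error 0.14, adjusted p = 0.209). CXCR4 was at 5.85 on CSC array 1, against 4.96 to 4.99 on the other CSC arrays, just above the detection limit. The DU145 arrays gave 4.94, 4.49 and 4.91, so much of the CXCR4 difference rested on CSC array 1.

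Of 24 transcription factors that act on these genes or on gastric mucous fate, 19 were measured, 1 was called higher (0.722% of all clusters) and 0 lower (0.577%), with a median difference of 0.17. The called gene was KLF4, a factor of epithelial differentiation, with 6.91, 6.23, 6.34 and 6.33 on the CSC arrays, against 5.40, 5.38 and 5.57 on the DU145 arrays. It stood at the limit (difference 1.003, standard error 0.18, adjusted p = 0.0495), the study selected it on these samples, and it was called in 0 of the 7 fits that left out 1 array. Its adjusted p ran from 0.0189 without CSC array 1, where the difference of 0.85 missed the fold limit, to 0.159 without DU145 array 2. After the array medians were set equal its difference was 0.93, under the fold limit. EHF, an ETS factor of epithelia, gave 4.55, 5.74, 5.77 and 6.45 on the CSC arrays, against 3.33, 3.49 and 3.50 on the DU145 arrays. The groups did not overlap, but EHF did not pass (difference 2.19, standard error 0.42, adjusted p = 0.0576), and without CSC array 1 its adjusted p was 0.0146 and it was called. EHF was also called after the array medians were set equal (adjusted p = 0.0425), so that under this scaling the 1 called factor was EHF and not KLF4. All 3 DU145 arrays and CSC array 1 were below the detection limit for EHF. FOXA1, a pioneer factor of endodermal epithelia, had a difference of 0.46 (standard error 0.23, adjusted p = 0.328), and PPARG, a nuclear receptor, one of -0.56 (standard error 0.18, adjusted p = 0.179).

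**Figure D5:**
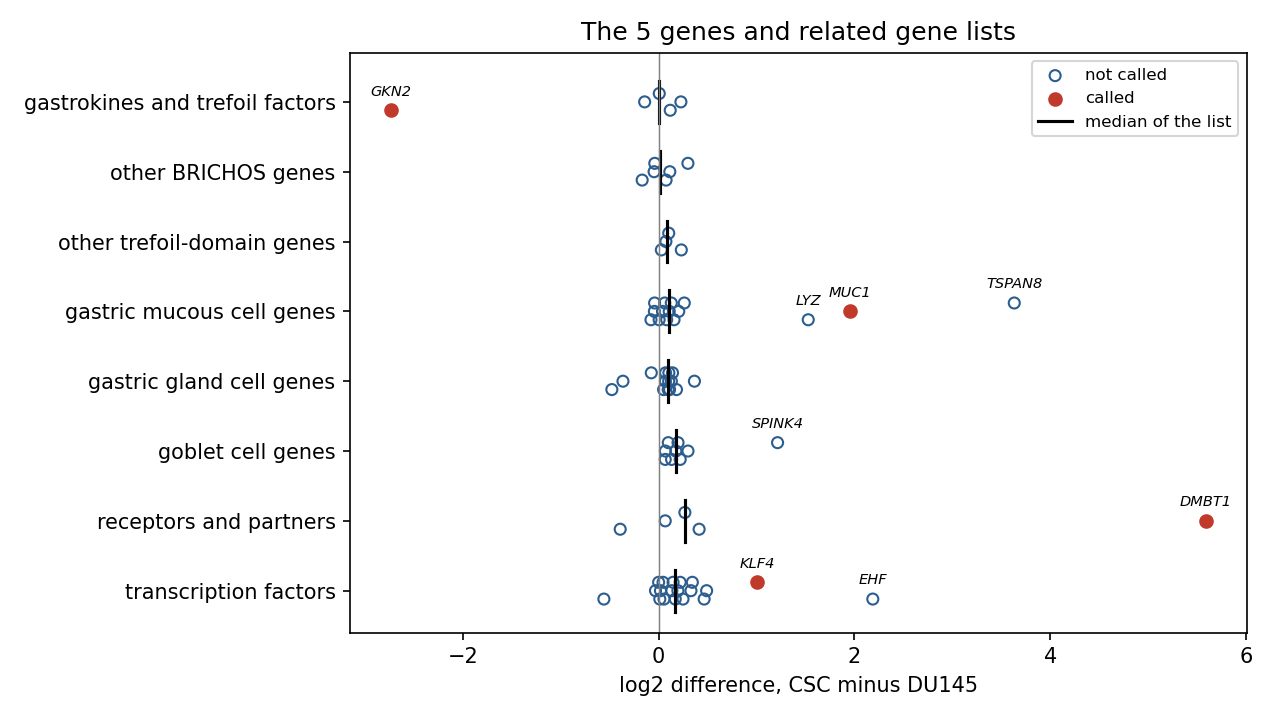
Log2 difference, CSC minus DU145 (horizontal axis), of each measured gene in the 5-gene group and in 7 related lists (vertical axis), with called genes filled red, others open blue and the median of each list as a black bar. GKN2 at -2.74 is the only called gene of these lists below 0, and DMBT1, MUC1 and KLF4 are the called genes above 0.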

How the data were processed

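Total RNA of 4 CSC and 3 DU145 samples was measured on Affymetrix exon arrays. The authors summarised probes to gene level in oneChannelGUI (RMA, sketch quantile normalization) and deposited log2 values, which run from 0.24 to 13.8 over 22011 transcript clusters. The genome build was not given in the sources used here. The study describes the removal of probe sets that were not expressed or did not change in its own selection of genes, and all 22011 deposited clusters were used here. Clusters were named through the platform's gene table, with symbols updated by Entrez ID: 14432 had 1 symbol, 2408 several and 5171 none. A gene was read from its brightest cluster with 1 symbol.

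All 7 arrays entered a limma model (limma 3.58.1, R 4.3.3) whose sole factor was the cell population. Benjamini-Hochberg adjustment ran over all clusters, and the limits were an adjusted p of 0.05 and an absolute log2 difference of 1. The fit was tested on simulated data. Precision is limited by having 7 arrays.

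The members, gene lists and the rule for named genes were chosen with earlier results of these data known. The text names every member, the called genes of each list and up to 3 others, the nearest and the called neighbours and the 5 genes closest to GKN2, while ARHGAP25, GFPT1 and NFU1 lie outside the rule and were chosen after their values were seen. Alternatives covered scaling, array weights, moderation, an unmoderated test with pooled variance, which the study names for other assays than the arrays, thresholds, a filter on dim clusters, a replicate block and each array left out in turn.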

Additional observations from a re-analysis of the deposited data

Results flagged for a closer look

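The check covered 26 of the genes named in the text. Left out were CXCR4, EGFR, BHLHA15, ARHGAP25, GFPT1, NFU1 and the cell type markers. Of those left out, CXCR4 was at 5.85 on CSC array 1, against 4.96 to 4.99 on the other CSC arrays. Of the 26, 8 had 1 CSC array that stood apart from the other 3, by the ratio of its gap to the group's range. For values that do not repeat, chance gives such a flag for about 1 in 20 groups. Many deposited values repeat between arrays, so the count of 8 cannot be judged against that rate. For 5 of the 8 the array was CSC array 1, the highest of the group. There GKN1 was at 2.48, against 2.27 on each of the other CSC arrays, BMP10 at 4.02, against 3.53 to 3.56, KLF4 at 6.91, against 6.23 to 6.34, ABCG1 at 5.10, against 4.84, and TMPRSS3 at 3.77, against 3.69. TFF3 was lowest on CSC array 3 at 4.57, against 4.87 to 4.89, and GAA was highest there at 6.20, against 5.75 to 5.77. ITM2C was lowest on CSC array 2 at 7.06, against 7.14. For GKN1, TMPRSS3 and ITM2C the other 3 arrays shared 1 deposited value, which alone gives the flag. For TFF3, GAA and ABCG1, CSC array 4 repeated the value of another CSC array.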

How the results depend on the processing

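The difference of GKN2 was -2.81 after the array medians were set equal, -2.74 after a further quantile normalization and -2.67 with array weights, and -2.80 with the replicate number as a block, a fit that leaves CSC array 4 without a partner. Over the fits without 1 array each, it was -2.86 to -2.51 for GKN2, -0.05 to 0.07 for GKN1, 0.07 to 0.33 for TFF1, 0.08 to 0.14 for TFF2 and -0.17 to -0.07 for TFF3. Median centring, which lowers every difference by 0.08, moved TFF2 to 0.0428.

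The count of called clusters, 286 (159 higher, 127 lower), was 413 (192 higher, 221 lower) with median centring and 430 (201 higher, 229 lower) after quantile normalization, 495 (297 higher, 198 lower) with array weights, 450 with no fold limit and 957 at an unadjusted p. It was 826 by the unmoderated test before adjustment and 43 after Benjamini-Hochberg adjustment of it. Leaving out 1 array gave 56 to 279, with 56 without DU145 array 1, 59 without DU145 array 2, 129 without DU145 array 3, 86 without CSC array 2 and 136 without CSC array 3. The block left 0 calls by limma, with 999 at an unadjusted p with the fold limit, and 0 in each list. The numbers are no pairing by the labels. The deviations of same-numbered arrays from their group means correlated at 0.07, -0.01 and 0.05, and DU145 array 2 correlated best with CSC array 1.

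The gastric mucous list, with 1 call, had 2 with median centring, quantile normalization, trend and robust moderation, array weights and the unmoderated test, 3 at an unadjusted p, 0 after adjustment of that test and 0 to 2 without 1 array. Goblet genes had 1 call with median centring, quantile normalization, the filter on dim clusters, the unmoderated test and an unadjusted p. Transcription factors had 2 by the unmoderated test and at an unadjusted p, 0 after adjustment of it and 0 to 1 without 1 array. Partners and neighbours kept 1 call without each array. The cause of these shifts was not tested. GKN2 and TFF3 in CSC, and GKN1 and TFF2 in both groups, were below the detection limit on every array, which limits how low a value can be read.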
